A study of Mus musculus with 6 samples.

Results

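*Hcrt* and *Hdc*, the genes for the orexin precursor and for histidine decarboxylase, were followed in the hypothalamus of *Fmr1* KO and WT mice. Both were chosen by name, with earlier results of these data known, and they are 2 of the 787 probes counted. The *Hdc* probe carries that symbol in the count table, and the *Hcrt* probe is listed there as orexin and was matched by its RefSeq transcript, NM_010410.2. Hypothalamic RNA came from 3 *Fmr1* KO mice, which carry the Fmr1tm1Cgr null allele in the germ line, and from 3 congenic WT mice. All were females of the FVB background in diestrus at 8 weeks of age, perfused with cold PBS, and each gave 50 ng of RNA to 1 nCounter lane. The nCounter assay hybridizes a colour-coded probe pair to each RNA and counts the codes without amplification. The hypothalamus was dissected from 500 μm coronal sections and its RNA was pooled over all cells, so fewer cells of a type and less RNA per cell cannot be told apart in any of the values below.

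Orexin neurons lie in the lateral and perifornical hypothalamus, and histamine neurons in the tuberomammillary nucleus at its posterior end. Both send axons to most of the brain and are active mainly in waking. *Hcrt* encodes prepro-orexin, which is cleaved into the peptides orexin A and orexin B, the ligands of a pair of G protein-coupled receptors, and loss of orexin neurons causes narcolepsy. *Hdc* encodes the only enzyme that makes histamine, which it forms from histidine, and in the brain it marks histamine neurons, although mast cells express it as well.

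Total counts were 165514 to 339934 in *Fmr1* KO lanes and 261019 to 303764 in WT lanes. The factors by which the authors scaled each lane ran from 0.767 to 1.72 in *Fmr1* KO lanes and from 0.922 to 0.997 in WT lanes. The lowest total and the highest factor both belonged to *Fmr1* KO replicate 2. Normalized counts below are raw counts times this factor. Of the 17 peptide genes listed for other hypothalamic neurons, 14 were on the panel and all 14 passed the minimum of more than 20 counts in at least 3 lanes, as did *Hcrt* and *Hdc* and 601 probes in all. With edgeR's quasi-likelihood test, 5 of the 601 probes (0.832%) differed between genotypes at an adjusted p under 0.05, and neither *Hcrt* nor *Hdc* was among them. *Fmr1* RNA was not analysed here, and *Fmr1* KO and WT mice were in separate blocks of lanes, so genotype and position on the cartridge cannot be told apart.

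*Hcrt* RNA was about as abundant in the middle *Fmr1* KO mouse as in WT mice, but it was spread much more widely among *Fmr1* KO mice. *Hcrt* had 595, 378 and 1384 normalized counts in *Fmr1* KO replicates 1, 2 and 3, against 669, 522 and 564 in WT replicates 1, 2 and 3. The highest and the lowest of the 6 mice were thus both *Fmr1* KO mice, and all WT values lay between them. The mean was 785 ± 529 normalized counts in *Fmr1* KO and 585 ± 75.5 in WT mice (SD, n = 3 each), while the medians were 595 in *Fmr1* KO and 564 in WT mice. The log2 fold change of *Fmr1* KO over WT was 0.44, with an SE of 0.34 and 0.786 for the adjusted p in edgeR. Its 95% interval, from -0.32 to 1.19, holds folds from 0.801 to 2.28, so both a lower and a higher *Hcrt* level lie within the error of these 6 mice. The direction rested on *Fmr1* KO replicate 3. When that mouse was left out, the log2 fold change of *Hcrt* was -0.24 ± 0.18 (SE; 0.796 for the adjusted p in edgeR), and without *Fmr1* KO replicate 2 it was 0.75 ± 0.27 (SE; 0.495 for the adjusted p in edgeR). A fit on the mean of log2 values, which gives a single high mouse less weight, put it at 0.22.

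**Figure D1:**
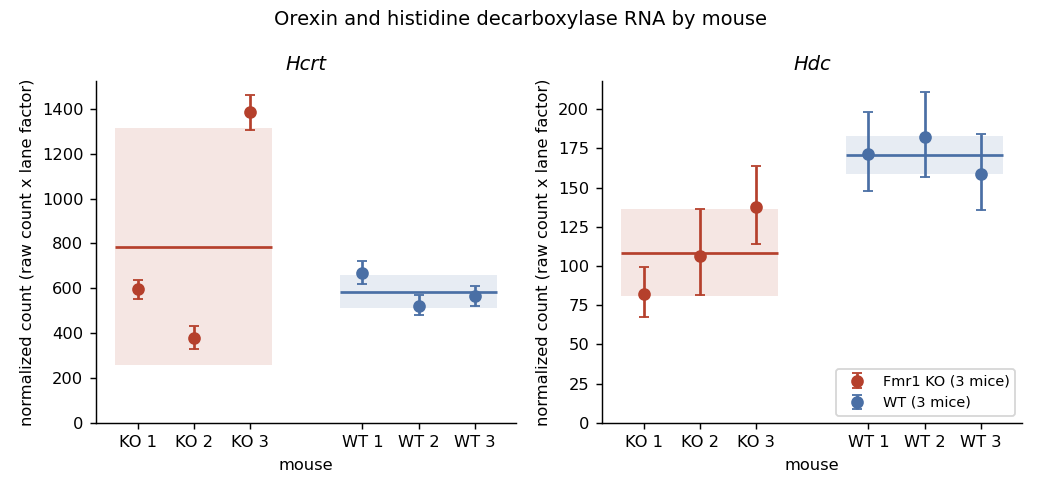
Normalized counts (raw count times the lane factor) of *Hcrt*, left, and *Hdc*, right, for each of 3 *Fmr1* KO and 3 WT mice. Points are mice with 95% Poisson intervals for counting error, lines are group means and shaded bands are ± 1 SD. *Hcrt* in *Fmr1* KO mice runs from 378 to 1384 around the WT values, and *Hdc* in every *Fmr1* KO mouse, at most 137, is below every WT mouse, at least 159.

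The spread of *Hcrt* among *Fmr1* KO mice was far above what counting gives. The coefficient of variation between mice was 67.4% in *Fmr1* KO and 12.9% in WT mice, where the counts alone would give 4.71% in *Fmr1* KO and 4.06% in WT lanes. The highest *Fmr1* KO mouse had 3.66 times the *Hcrt* of the lowest, and the highest WT mouse 1.28 times that of the lowest. On the log2 scale the SD of *Hcrt* was 0.95 among *Fmr1* KO and 0.18 among WT mice. The first was the largest SD among *Fmr1* KO mice of the 601 tested probes, whose median was 0.18, and it stayed the largest with TMM scaling, with scaling to pan-neuronal probes and in the authors' own values. The next largest SD among *Fmr1* KO mice was close, at 0.92. Among WT mice, *Hcrt* stood at rank 199 of 601 for its SD, against a median of 0.13 over the tested probes. By the ratio of the SD among *Fmr1* KO to that among WT mice, it stood only at rank 40 of 601. That rank was 37 with TMM and 43 with pan-neuronal scaling. These ranks were read after the values were seen and carry no test. An *Fmr1* KO range that holds the whole WT range, as *Hcrt* had, was seen in 166 of the 601 probes (27.6%).

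**Figure D2:**
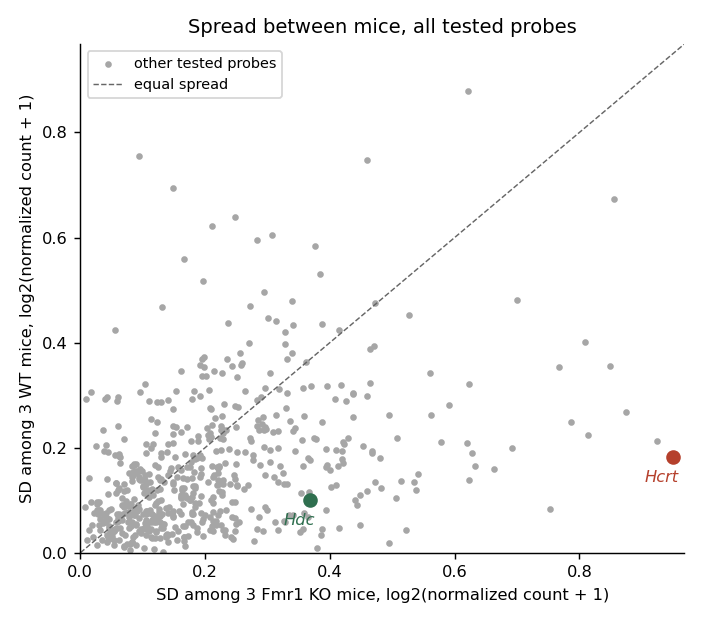
SD of log2(normalized count + 1) among the 3 *Fmr1* KO mice (horizontal axis) against that among the 3 WT mice (vertical axis), 1 point for each of the 601 tested probes, with a dashed line of equal spread. *Hcrt* is the point farthest to the right, at 0.95, with 0.18 among WT mice, and *Hdc* lies at 0.37 and 0.10.

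The order of the mice for *Hcrt* did not depend on the lane factor at either end. Raw *Hcrt* counts were 776, 220 and 1229 in *Fmr1* KO replicates 1, 2 and 3, and 713, 524 and 612 in WT replicates 1, 2 and 3. *Fmr1* KO replicate 2 was the lane with the lowest total, and its *Hcrt* count remained the lowest after scaling. Ranked among all 787 probes of its own lane, *Hcrt* stood at 106, 174 and 47 in *Fmr1* KO replicates 1, 2 and 3, and at 97, 127 and 120 in WT replicates 1, 2 and 3. The rank of a probe within its lane uses no scaling, and by it too the highest and the lowest mouse for *Hcrt* were *Fmr1* KO replicates 3 and 2.

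*Hdc* RNA was lower in each *Fmr1* KO mouse than in any WT mouse, at a mean of 0.636 times the WT level, although its adjusted p was above 0.05. *Hdc* had 82.0, 106 and 137 normalized counts in *Fmr1* KO replicates 1, 2 and 3, against 172, 182 and 159 in WT replicates 1, 2 and 3. The groups did not overlap, and the narrowest gap was between *Fmr1* KO replicate 3 and WT replicate 3. A clean separation with *Fmr1* KO mice below was seen in 41 of the 601 probes (6.82%). The mean was 109 ± 27.7 normalized counts in *Fmr1* KO and 171 ± 11.9 in WT mice (SD, n = 3 each). For *Hdc* the log2 fold change came to -0.67, with an SE of 0.18 and a 95% interval of -1.06 to -0.28, or folds of 0.479 to 0.825. Its p from edgeR was 0.00323 before and 0.166 after adjustment. At an unadjusted p under 0.05, *Hdc* was 1 of 17 lower probes among the 601 (2.83%). Among all tested probes only *Tnfrsf12a*, a receptor gene of the TNF family, had a lower log2 fold change, at -0.70.

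**Figure D3:**
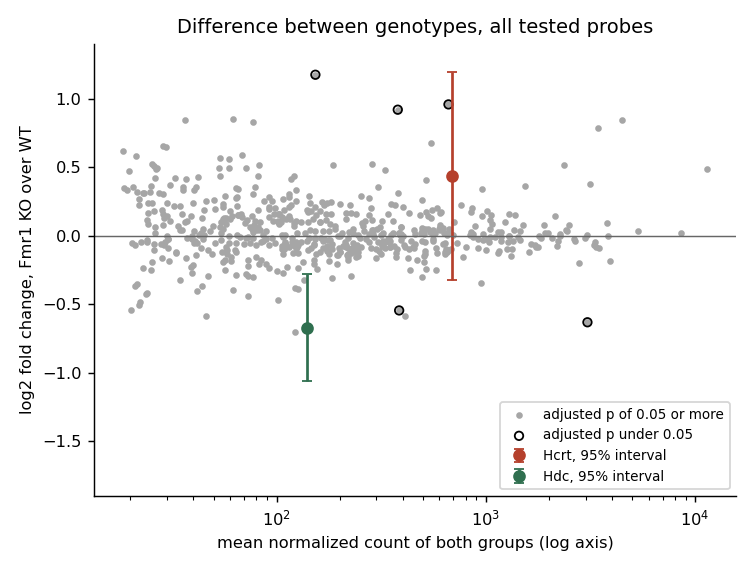
Log2 fold change of *Fmr1* KO over WT (vertical axis) against the mean normalized count of both groups (horizontal log axis) for the 601 tested probes, with 95% intervals for *Hcrt* and *Hdc*. Circled points are the 5 probes with an adjusted p under 0.05. The interval of *Hdc* lies below 0, at -1.06 to -0.28, and that of *Hcrt* spans 0, at -0.32 to 1.19.

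*Hdc* was counted less deeply than *Hcrt*, and counting error makes up more of its spread. Raw *Hdc* counts were 107, 62 and 122 in *Fmr1* KO replicates 1, 2 and 3, and 183, 183 and 172 in WT replicates 1, 2 and 3, so the groups were apart before any scaling. With 95% Poisson intervals, *Fmr1* KO replicate 3 had 114 to 164 normalized *Hdc* counts and WT replicate 3 had 136 to 184, and these intervals overlap. That of *Fmr1* KO replicate 1, at 67.2 to 99.1, was below the intervals of all WT mice. The coefficient of variation was 25.5% in *Fmr1* KO mice, where counting alone would give 10.6%, and 6.99% in WT mice, where counting alone would give 7.47%. The spread of *Hdc* among WT mice was therefore no wider than counting, and that among *Fmr1* KO mice was. On the log2 scale the SD of *Hdc* was 0.37 among *Fmr1* KO and 0.10 among WT mice.

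*Hdc* kept its direction without each mouse and under each scaling tried, although the size moved. As counts per 100000 of the lane total, *Hdc* had 31.5, 37.5 and 47.6 in *Fmr1* KO replicates 1, 2 and 3, and 65.6, 70.1 and 56.6 in WT replicates 1, 2 and 3. By rank among the 787 probes of each lane it stood at 396, 379 and 321 in *Fmr1* KO replicates 1, 2 and 3, and at 280, 268 and 305 in WT replicates 1, 2 and 3. Set against the summed count of 12 pan-neuronal probes, *Hdc* had 4.91, 6.07 and 7.71 per 1000 neuronal counts in *Fmr1* KO replicates 1, 2 and 3, and 11.0, 11.0 and 9.49 in WT replicates 1, 2 and 3. All 3 *Fmr1* KO mice were below all WT mice on each of these scales. The pan-neuronal sum, as normalized counts, was itself somewhat higher in *Fmr1* KO mice. With scaling to it the log2 fold change of *Hdc* was -0.76, against -0.67 with the lane factors. The log2 fold change of *Hdc* ran from -0.89, without *Fmr1* KO replicate 3, to -0.47, without *Fmr1* KO replicate 1, over 18 other settings, and the adjusted p from 0.0643 in DESeq2 to 0.615 with the test that the methods name. None passed the adjusted threshold.

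**Figure D4:**
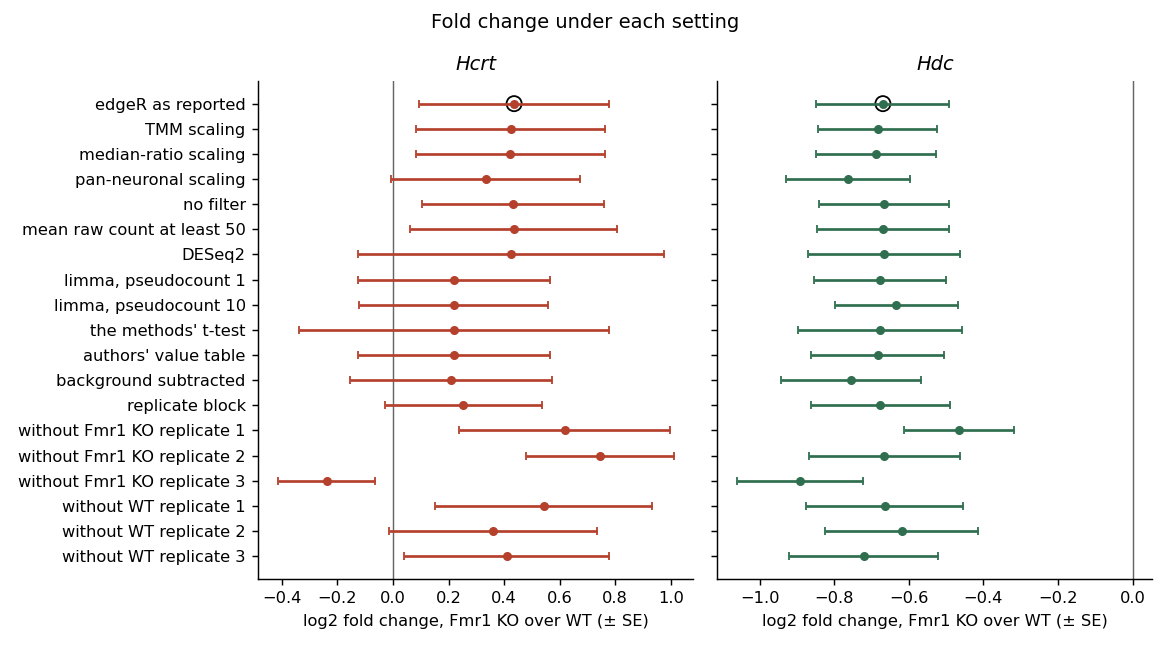
Log2 fold change of *Fmr1* KO over WT (horizontal axis, ± SE) for *Hcrt*, left, and *Hdc*, right, in the edgeR fit (ringed, top row) and 18 other settings. *Hdc* stays below 0 in each, from -0.89 to -0.47, and *Hcrt* runs from -0.24, without *Fmr1* KO replicate 3, to 0.75, without *Fmr1* KO replicate 2.

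To ask whether *Hdc* and *Hcrt* differed in their response to genotype, their ratio was taken within each lane, where the lane factor cancels. The raw *Hdc* count was 0.138, 0.282 and 0.0993 of the *Hcrt* count in *Fmr1* KO replicates 1, 2 and 3, and 0.257, 0.349 and 0.281 in WT replicates 1, 2 and 3. *Fmr1* KO replicates 1 and 3 were below all WT mice, and *Fmr1* KO replicate 2, which was below every WT mouse for both RNAs, was among them. The log2 ratio averaged -2.67 ± 0.77 in *Fmr1* KO and -1.77 ± 0.23 in WT mice (SD, n = 3 each), a difference of -0.90 with p = 0.3 from an exact two-sided permutation test. The smallest p that 3 mice against 3 can give is 0.1. These ratios compare mice, not the abundance of the RNAs, since the probes may differ in efficiency. Within *Fmr1* KO mice, replicate 3 had the most of both RNAs, while *Hcrt* was lowest in replicate 2 and *Hdc* in replicate 1.

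Few other genes of either transmitter system were on the panel. Of 10 genes listed for orexin neurons and their receptors, 3 were measured, and none of the 3 passed the adjusted threshold in either direction. *Pdyn*, encoding the dynorphin precursor that orexin neurons also make, as do other hypothalamic neurons, had 386, 400 and 510 normalized counts in *Fmr1* KO replicates 1, 2 and 3, and 512, 424 and 395 in WT replicates 1, 2 and 3. *Fmr1* KO replicate 3 and WT replicate 1 had the highest levels of *Pdyn*, as they had of *Hcrt*, but for *Pdyn* both were about level. The log2 fold change of *Pdyn* was -0.04 ± 0.13 (SE; 0.978 for the adjusted p in edgeR). *Slc17a6*, the vesicular glutamate transporter of orexin and many other hypothalamic neurons, had 1675, 1727 and 1648 normalized counts in *Fmr1* KO replicates 1, 2 and 3, and 1800, 1786 and 1744 in WT replicates 1, 2 and 3. Its log2 fold change was -0.08 ± 0.06 (SE; 0.787 for the adjusted p in edgeR). All *Fmr1* KO mice were below all WT mice for *Slc17a6*, by a small step, as in 41 of the 601 tested probes (6.82%).

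Of 9 genes listed for the histamine system, *Hdc* was the 1 measured, so the transporters, receptors and breakdown enzymes of histamine were not analysed here. Of 12 genes listed for catecholamines and serotonin, the other aminergic transmitters of arousal, 2 were measured and neither passed. *Th*, the rate-limiting enzyme of catecholamine synthesis, had 176, 209 and 241 normalized counts in *Fmr1* KO replicates 1, 2 and 3, and 274, 229 and 191 in WT replicates 1, 2 and 3. The groups overlapped, with a log2 fold change of -0.16 ± 0.16 (SE; 0.865 for the adjusted p in edgeR). *Slc6a3*, the dopamine transporter, averaged 30.7 ± 15.3 normalized counts in *Fmr1* KO and 29.9 ± 3.35 in WT mice (SD, n = 3 each), close to the count minimum.

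Genes listed for neurons that lie beside orexin and histamine neurons went both ways, though only 1 of them passed the adjusted threshold. RNA was pooled over the dissected hypothalamus, so these values are not particular to neurons in those places. Of 12 listed, 2 were measured. *Cartpt*, encoding the peptide CART, fell in *Fmr1* KO mice, by 0.63 on the log2 scale (SE 0.08; 0.00375 for the adjusted p in edgeR). *Trh*, encoding thyrotropin-releasing hormone, had a log2 fold change of 0.34 ± 0.09 (SE; 0.166 for the adjusted p in edgeR), the opposite sign to *Hdc* at the same adjusted p. Over the 14 peptide genes of other hypothalamic neurons, 2 were lower and none was higher at an adjusted p under 0.05. These 14 include *Cartpt*, *Trh* and *Pdyn*, given above. Of all 601 tested probes, 2 were lower and 3 higher at that threshold, so *Cartpt* and *Tac2* were the only lower calls. The median log2 fold change of the 14 was -0.03, beside 0.01 over all 601 tested probes.

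Since mast cells also make histamine, their markers were set beside *Hdc*. Of 11 listed, 5 were measured and 2 were tested. The mast cell protease genes *Cpa3* and *Tpsb2* and the IgE receptor gene *Ms4a2* had at most 16 raw counts in any lane, below the count minimum, against 62 to 183 for *Hdc*. The summed normalized count of the 5 probes was 86.6 to 153 in *Fmr1* KO and 92.7 to 116 in WT mice, most of it from *Kit* and *Hpgds*, which other brain cells express too. *Kit*, a receptor tyrosine kinase, had a log2 fold change of 0.12, and *Hpgds*, a prostaglandin D synthase, of -0.04, with adjusted p of 0.934 and 0.990 from edgeR. Since its defining markers were this low, the sum does not measure mast cells, and their part in the *Hdc* values was not tested.

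Markers of other cells were read in the same lanes. All 13 tested myelin genes had a log2 fold change above 0, as did 317 of the 601 tested probes (52.7%), and 1 of the 13 had an adjusted p under 0.05, and their summed normalized count was 18871 to 26630 in *Fmr1* KO and 14243 to 21748 in WT mice, ranges that overlap. The sum of 12 pan-neuronal probes was 16721 to 17806 in *Fmr1* KO and 15581 to 16702 in WT mice. Every *Fmr1* KO sum was thus above every WT sum, by a narrow margin. Of the 12 probes, 10 had a log2 fold change above 0, and none passed the adjusted threshold. Of 11 markers of tissue next to the hypothalamus 4 were measured, with sums of 158 to 354 in *Fmr1* KO and 221 to 1745 in WT mice. The pituitary gene *Prl* had raw counts of 4, 6 and 9 in *Fmr1* KO replicates 1, 2 and 3, and 123, 6 and 1626 in WT replicates 1, 2 and 3, where the 84 lowest probes of a lane averaged 6.08 to 9.24 counts. The 3 others were tested, and each had a log2 fold change above 0, none at an adjusted p under 0.05. Among them *Tbr1*, a transcription factor gene of cortical neurons, had 37.6, 63.5 and 41.7 normalized counts in *Fmr1* KO replicates 1, 2 and 3, and 22.5, 23.9 and 29.5 in WT replicates 1, 2 and 3. The log2 fold change of *Tbr1* was 0.84 ± 0.26 (SE; 0.306 for the adjusted p in edgeR), on only 24 to 49 raw counts per lane. The part of these genes, and of where each hypothalamus was cut, in the *Hcrt* and *Hdc* values was not tested.

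The probes whose pattern over the 6 mice was closest to *Hcrt* and to *Hdc* were different ones. Likeness was the root-mean-square difference of log2(normalized count + 1) after each probe was centred on its mean, where 0 is an identical pattern. For *Hcrt* the closest was *Avp*, encoding vasopressin, at 0.34, followed by *Pmp22*, a peripheral myelin protein gene, at 0.34 and *Nqo1*, a quinone reductase gene, at 0.38. A flat probe would lie at 0.57 from *Hcrt*. *Avp* had 5295, 3332 and 8701 normalized counts in *Fmr1* KO replicates 1, 2 and 3, and 3152, 2799 and 3690 in WT replicates 1, 2 and 3. It shared with *Hcrt* the highest value in *Fmr1* KO replicate 3 and the lowest of the *Fmr1* KO values in replicate 2, but, unlike *Hcrt*, was not below the WT mice there. *Avp* itself did not pass, with a log2 fold change of 0.85 ± 0.26 (SE; 0.306 for the adjusted p in edgeR).

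For *Hdc* the closest probes were *Cartpt*, at 0.20, *Tac2*, encoding neurokinin B, at 0.21, and *Vps4b*, a membrane-sorting ATPase gene, at 0.22. A flat probe would lie at 0.40 from *Hdc*. *Tac2* had 275, 360 and 310 normalized counts in *Fmr1* KO replicates 1, 2 and 3, and 477, 446 and 443 in WT replicates 1, 2 and 3, a log2 fold change of -0.54 ± 0.10 (SE; 0.0363 for the adjusted p in edgeR). *Cartpt* had 2220, 2609 and 2375 normalized counts in *Fmr1* KO replicates 1, 2 and 3, and 3983, 3739 and 3424 in WT replicates 1, 2 and 3. All 3 RNAs were lowest in *Fmr1* KO replicate 1, but the *Fmr1* KO mouse with the most was replicate 3 for *Hdc* and replicate 2 for *Cartpt* and *Tac2*. *Hcrt* itself was at 0.64 from *Hdc*, at rank 556 of closeness. The distance also grows with the spread of each probe, and that of *Hcrt* was wide, at 0.57 from a flat probe. This rank therefore does not tell whether the 2 patterns were alike in shape. These distances describe 6 mice and carry no test.

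**Figure D5:**
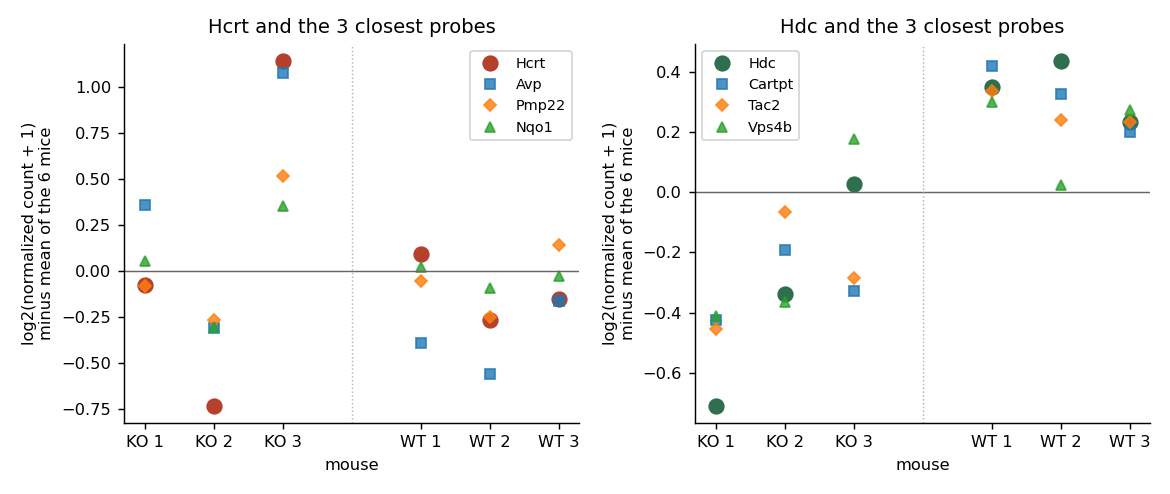
Log2(normalized count + 1) minus the mean of the 6 mice (vertical axis) for each *Fmr1* KO and WT mouse, for *Hcrt* with *Avp*, *Pmp22* and *Nqo1* (left) and *Hdc* with *Cartpt*, *Tac2* and *Vps4b* (right). *Hcrt* and *Avp* are both highest in *Fmr1* KO replicate 3, and *Hdc*, *Cartpt* and *Tac2* are below 0 in *Fmr1* KO replicates 1 and 2 and above 0 in all WT mice.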

How the data were processed

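The authors counted hypothalamic RNA of 3 *Fmr1* KO and 3 WT mice on the nCounter instrument and analysed it with nSolver. They deposited raw counts for 787 probes, a percent of lanes above their threshold that was not used, and a value table whose signal is the raw count times 1 factor per lane, raised to 1 for 1 value. The factors, based on 7 housekeeping genes per the methods, were recovered from the ratio of the 2 tables. Of the probes, 772 were named by RefSeq accession (GRCm38.p6) and 15 by the table. Groups come from the genotype labels, and lanes of a group differed beyond sampling noise (chi-square over degrees of freedom of at least 2.73). Raw counts of the 601 probes above 20 counts in at least 3 lanes were fitted with edgeR 4.0.16 (glmQLFit, glmQLFTest) in R 4.3.3, with Benjamini-Hochberg adjustment. The standard error is the log2 fold change over the square root of F. Poisson intervals cover counting error only.

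On simulated counts for 601 probes in the same 3 *Fmr1* KO and 3 WT lanes, 200 probes were changed. There edgeR called 95.0% of 2-fold and 76.0% of 1.5-fold changes, and 1.16% of its calls were false. The data gave 5 calls, and Benjamini-Hochberg adjustment is easier to pass when many probes change, so these rates do not carry over to *Hdc*. Alternatives were TMM, median-ratio and pan-neuronal scaling, other filters, DESeq2 1.42.0, limma 3.58.1, an equal-variance t-test on log2 values, the authors' values, background subtraction, the replicate number as a block and each mouse left out. The paper names a t-test in its general statistics but nSolver for these counts, so this t-test is not the authors' own fit. Named genes are *Hcrt*, *Hdc*, measured members of the orexin, histamine, other aminergic and mast cell lists and the 3 closest probes to each. *Trh*, *Prl*, *Tbr1* and *Tnfrsf12a* were named after their values were seen. The members and 9 gene lists were chosen with earlier results of these data known.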

Additional observations from a re-analysis of the deposited data

How the results depend on the processing

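*Hdc* kept a log2 fold change below 0 in all 18 alternatives, at -0.76 to -0.63 over the 12 that keep every mouse and -0.89 to -0.47 with each mouse left out, and it passed the adjusted threshold in none (adjusted p 0.0643 to 0.615). Its unadjusted p was under 0.05 in all 18. *Hcrt* kept a value above 0 in 17, at 0.21 to 0.43 with every mouse, -0.24 to 0.75 with each mouse left out, and an adjusted p of 0.495 to 0.999. The 1 reversal, -0.24, came without *Fmr1* KO replicate 3. Fits on the mean of log2 values gave *Hcrt* 0.22 at a pseudocount of 1, against 0.44 from edgeR. The difference of the log2 ratio of *Hdc* to *Hcrt* stayed below 0 in 10 alternatives (-0.97 to -0.84, and -1.33 to -0.57 with each mouse left out).

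The number of probes called, 5 with edgeR, was 3 when only probes averaging 50 raw counts or more were kept. It was 3 with the replicate number as a block, 7 in DESeq2 and 2 to 11 with each mouse left out. With the equal-variance t-test on log2 values it was 0, and 45 probes had an unadjusted p under 0.05. Same-numbered mice did not deviate together (correlations of -0.06, -0.08 and 0.10), and other pairs of mice gave -0.17 to 0.23. With 3 mice per group, these correlations cannot tell whether the numbers pair mice. With this replicate block *Hcrt* was at 0.25, *Hdc* at -0.68 and the difference of their log2 ratio at -0.90. *Hdc* rests on 62 to 183 raw counts per lane, and among *Fmr1* KO mice both genes varied more than counting gives.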
